A study of Homo sapiens with 6 samples.

Results

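Genes that sense and set cellular cholesterol were followed in U251 cells, a human glioma line, by RNA sequencing. The set held 7 genes, chosen by name as SREBP factors and genes of the cholesterol feedback, out of 61496 features in the tables. All 7 were among the 27514 features that passed the filter on low counts. They were SREBF1, SREBF2, INSIG1, HMGCS1, SQLE, IDI1 and ABCA1. The study compared 3 untreated control libraries with 3 libraries of U251 cells exposed to the anesthetic gas sevoflurane (Sev) for 2 h, to screen for genes whose transcripts differ after Sev. Every sample was this single cell line, grown in DMEM with 10% FBS, and nothing in the labels says whether the replicates came from separate cultures, so the p-values may measure technical spread. By the study's description the sequenced Sev cells received 5.1% Sev, while the labels also name 1.7% and 3.4% and tie no concentration to a library.

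Cells hold their cholesterol steady through a feedback loop at the membrane of the endoplasmic reticulum. When sterol is scarce, SCAP carries the SREBP factors to the Golgi, where 2 proteases free the part that enters the nucleus and switches on genes of cholesterol synthesis and uptake. When sterol is plentiful, the INSIG proteins hold SCAP back, oxysterols activate the LXR receptors, and LXR switches on exporters such as ABCA1. In glioma this balance has drawn attention because brain cells cannot take cholesterol from the blood and rely on synthesis and on exchange between cells.

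Library totals ran from 38624292 to 46318311 counts, and every value in CPM below was scaled by the trimmed mean of M-values (TMM). A gene was called when the edgeR quasi-likelihood test gave a Benjamini-Hochberg adjusted p under 0.05 over all tested features. This called 22.1% of the tested features higher and 21.5% lower in Sev. At the study's own threshold, a log2 fold change over 1 with an unadjusted p under 0.05, the shares were 11.4% higher and 12.0% lower. Scaling by library size alone moved the log2 fold changes by a median of -0.14 and gave 4665 higher and 7502 lower calls in place of 6094 and 5920. The 6 glial and glioma line markers (GFAP, VIM, NES, S100B, CD44 and SOX9) summed to 7460 to 8370 CPM in control and 8610 to 9100 CPM in Sev. VIM made up most of this sum, and of the 6 markers S100B was called lower at -1.10 on the log2 scale (edgeR adjusted p = 0.00215) and CD44 higher at 0.97 (edgeR adjusted p = 0.000174). Against this, the 3 epithelial markers summed to at most 0.293 CPM. The 3 leukocyte markers summed to 2.22 to 4.73 CPM in control and 4.72 to 5.24 CPM in Sev, and the 3 endothelial markers to 7.12 to 9.21 CPM and 7.41 to 10.4 CPM, of which PECAM1 was called higher at 0.92 on the log2 scale (edgeR adjusted p = 0.0409). The part of any other cell type in the results was not tested.

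Of the 7 genes, INSIG1, IDI1 and ABCA1 were called higher in Sev and none was called lower, beside 22.1% and 21.5% of all features. The log2 fold changes ranged from -0.25 for SREBF1 to 0.58 for IDI1, with a median of 0.21 against -0.01 over all features tested. None passed the study's threshold of a log2 fold change over 1. These are bulk libraries, in which a change in every cell and a change in some of the cells cannot be told apart. With library size alone, 1 of the 7 (SREBF1) was called lower and 2 higher (INSIG1 and IDI1).

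**Figure D1:**
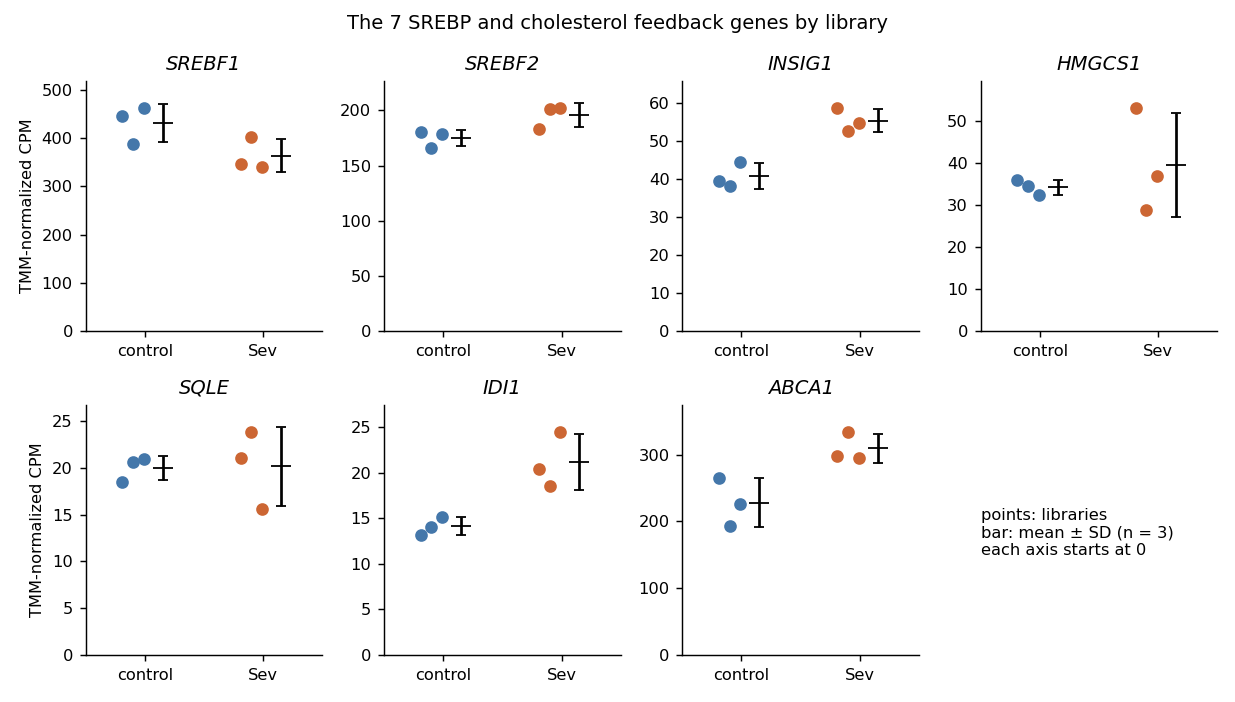
TMM-normalized CPM of each of the 7 genes in the 3 control and 3 Sev libraries, 1 panel per gene with its own axis from 0; points are libraries and bars are the mean ± SD (n = 3). All 3 Sev points lie above all 3 control points for INSIG1, IDI1 and ABCA1, and also for SREBF2, which was not called. For SREBF1, HMGCS1 and SQLE the groups overlap.

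Promoters are shown for the 3 genes called higher and for SREBF2, since sterol control of these genes acts there in the textbook account. Searched was 1 window per gene, the one nearest to the GENCODE 29 start of the gene where the table gives several (3 for IDI1, 2 for HMGCS1). Each is the RefSeq window from 250 bases before to 50 bases after the start of the gene on GRCh38.p14, written 5′ to 3′ along the gene. Capitals mark matches on either strand to the motifs searched: the sterol regulatory element (SRE) TCACNCCAC, the NF-Y box CCAAT, the Sp1 box GGGCGG, the E-box CACGTG and an LXR element of the DR4 type. A match is only a run of letters. The windows were chr7:155297628-155297927 (+ strand) for INSIG1, chr10:1049070-1049369 (- strand) for IDI1, chr9:104928106-104928405 (- strand) for ABCA1 and chr22:41832855-41833154 (+ strand) for SREBF2.
INSIG1: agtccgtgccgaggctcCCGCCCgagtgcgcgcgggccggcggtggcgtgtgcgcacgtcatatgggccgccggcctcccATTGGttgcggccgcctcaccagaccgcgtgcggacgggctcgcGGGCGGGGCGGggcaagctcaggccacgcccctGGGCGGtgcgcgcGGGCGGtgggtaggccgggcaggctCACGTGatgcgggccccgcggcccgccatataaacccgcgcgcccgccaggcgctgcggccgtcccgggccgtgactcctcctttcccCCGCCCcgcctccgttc
IDI1: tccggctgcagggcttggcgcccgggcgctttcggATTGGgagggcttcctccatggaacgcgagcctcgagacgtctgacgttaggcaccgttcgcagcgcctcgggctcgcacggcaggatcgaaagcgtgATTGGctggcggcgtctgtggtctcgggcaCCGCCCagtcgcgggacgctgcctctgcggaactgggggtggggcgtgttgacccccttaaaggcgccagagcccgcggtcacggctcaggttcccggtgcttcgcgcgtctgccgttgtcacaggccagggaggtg
ABCA1: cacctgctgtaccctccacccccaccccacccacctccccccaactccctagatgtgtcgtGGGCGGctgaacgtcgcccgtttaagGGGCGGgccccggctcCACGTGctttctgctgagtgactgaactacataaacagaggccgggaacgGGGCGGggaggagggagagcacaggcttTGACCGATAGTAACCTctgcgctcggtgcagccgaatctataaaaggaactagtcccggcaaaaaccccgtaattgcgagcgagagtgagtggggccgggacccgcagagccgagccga
SREBF2: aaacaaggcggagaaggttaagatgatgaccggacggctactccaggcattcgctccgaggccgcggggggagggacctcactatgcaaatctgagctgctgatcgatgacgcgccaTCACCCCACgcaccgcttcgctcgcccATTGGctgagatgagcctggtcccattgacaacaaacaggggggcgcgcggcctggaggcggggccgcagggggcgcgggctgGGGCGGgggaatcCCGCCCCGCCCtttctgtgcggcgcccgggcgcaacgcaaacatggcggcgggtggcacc

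In the INSIG1 window were 1 NF-Y box, 6 Sp1 boxes, of which 2 overlap, and 1 E-box. The IDI1 window held 2 NF-Y boxes and 1 Sp1 box, and that of ABCA1 held 3 Sp1 boxes, 1 E-box and 1 DR4 element. The window of SREBF2 held the exact SRE, which was not found in the windows searched for the other genes. It began at position -133 from the start site, with an NF-Y box at -106. The SRE letters occur in 1.13% of the 35116 promoters of the table, the NF-Y box in 34.6%, the Sp1 box in 45.0%, the E-box in 7.26% and the DR4 element in 0.333%. The DR4 pattern accepted a C at the first base of its second part and was written with the ABCA1 promoter in view, so its match there is no independent find. The windows of HMGCS1 and SREBF1, which are not printed, held 2 NF-Y and 2 Sp1 boxes and 3 Sp1 boxes, respectively. INSIG1 and IDI1 thus share the NF-Y and Sp1 boxes with the uncalled SREBF2 and HMGCS1. Counts of these boxes do not separate the genes called higher from the others. Of the windows searched, only those of INSIG1 and ABCA1 held the E-box, and that of IDI1, also called higher, did not.

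SREBF1 and SREBF2 encode the membrane-bound precursors of the SREBP factors. SREBF1, whose products favour fatty acid genes, lies on chromosome 17 from 17810399 to 17837002 (minus strand, GRCh38, GENCODE 29). It gave 445.5, 386.8 and 462.2 CPM in control and 346.3, 402.4 and 340.4 CPM in Sev. Sev replicate 2 lay above control replicate 2, so the groups overlapped. Its log2 fold change was -0.25 ± 0.10 (SE, n = 3 per group), with an edgeR adjusted p of 0.0842, so SREBF1 was not called. This verdict turned on the scaling and on single libraries. With library size alone the log2 fold change was -0.40 (edgeR adjusted p = 0.0123), and measured from the median of all features under that scaling it was again -0.25. Without control replicate 2 it was -0.33 (edgeR adjusted p = 0.0441) and without Sev replicate 2 also -0.33 (edgeR adjusted p = 0.0354), and over all alternatives the adjusted p ranged from 0.0123 to 0.234. RAI1, on the opposite strand, shares 556 exon bases with SREBF1 and was higher in Sev by 0.41 on the log2 scale (edgeR adjusted p = 0.00377). RAI1 had 4554 to 6175 counts and SREBF1 13046 to 22437, and the part of shared reads was not tested.

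SREBF2, whose product favours cholesterol genes, lies on chromosome 22 from 41833079 to 41907308 (plus strand). Its levels were 180.0, 166.2 and 178.5 CPM in control and 183.3, 201.7 and 202.3 CPM in Sev. The groups did not overlap, but the gap between the highest control and the lowest Sev library was small beside the spread within Sev. This gave a log2 fold change of 0.16 ± 0.08 (SE, n = 3 per group; 95% interval -0.02 to 0.34), and with an edgeR adjusted p of 0.127, SREBF2 was not called. By library size alone it was 0.02. The antisense gene SREBF2-AS1, which shares 280 exon bases, had 197 to 336 counts against 6584 to 8666 for SREBF2 and a log2 fold change of -0.20 (edgeR adjusted p = 0.293).

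Because both SREBP genes were read in the same library, their ratio does not depend on the scaling. The log2 ratio of SREBF1 to SREBF2 counts was 1.31, 1.22 and 1.37 in control and 0.92, 1.0 and 0.75 in Sev. All 3 Sev libraries lay below all 3 control libraries. The mean fell from 1.30 ± 0.077 to 0.89 ± 0.126 (SD, n = 3), a difference of -0.41, with p = 0.1 in a two-sided exact permutation test, the smallest p that 3 against 3 libraries can give. Per length, in FPKM, SREBF1 stood 2.26-fold over SREBF2 in control and 1.7-fold over it in Sev.

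INSIG1, on chromosome 7 from 155297776 to 155310235 (plus strand), encodes the sterol-responsive anchor of SCAP and is itself a classic SREBP target. It gave 39.6, 38.2 and 44.5 CPM in control and 58.7, 52.7 and 54.8 CPM in Sev. The lowest Sev library was above the highest control library. INSIG1 had a log2 fold change of 0.44 ± 0.09 (SE, n = 3 per group), a 1.36-fold higher level, with an edgeR adjusted p of 0.00716. The call held in each of the 6 fits without 1 library, at log2 fold changes of 0.39 to 0.50, and with library size alone (0.30, edgeR adjusted p = 0.0433). Over all alternatives the adjusted p ranged from 0.00119 to 0.0979, the highest in limma on log2(FPKM + 1) without a filter. INSIG1-DT, the divergent transcript beside it, had a log2 fold change of 0.01 (edgeR adjusted p = 0.971).

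Its paralog INSIG2, which also anchors SCAP but is not a classic SREBP target, moved the other way. INSIG2 gave 13.5, 12.4 and 12.9 CPM in control and 4.91, 4.13 and 4.62 CPM in Sev. The log2 fold change was -1.5 ± 0.13 (SE, n = 3 per group; edgeR adjusted p = 0.000192), and the call held in all 6 fits without 1 library, at -1.56 to -1.43. Within libraries the log2 ratio of INSIG1 to INSIG2 counts was 1.56, 1.63 and 1.79 in control and 3.58, 3.67 and 3.57 in Sev. It rose by 1.95 on average, from 1.66 ± 0.118 to 3.61 ± 0.059 (SD, n = 3), again with the smallest p the exact permutation test allows, 0.1. Per length, in FPKM, INSIG1 stood 3.42-fold over INSIG2 in control and 13.4-fold over it in Sev. The change in INSIG2 was larger than that in INSIG1, so most of the shift in this ratio came from the lower INSIG2 counts.

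**Figure D2:**
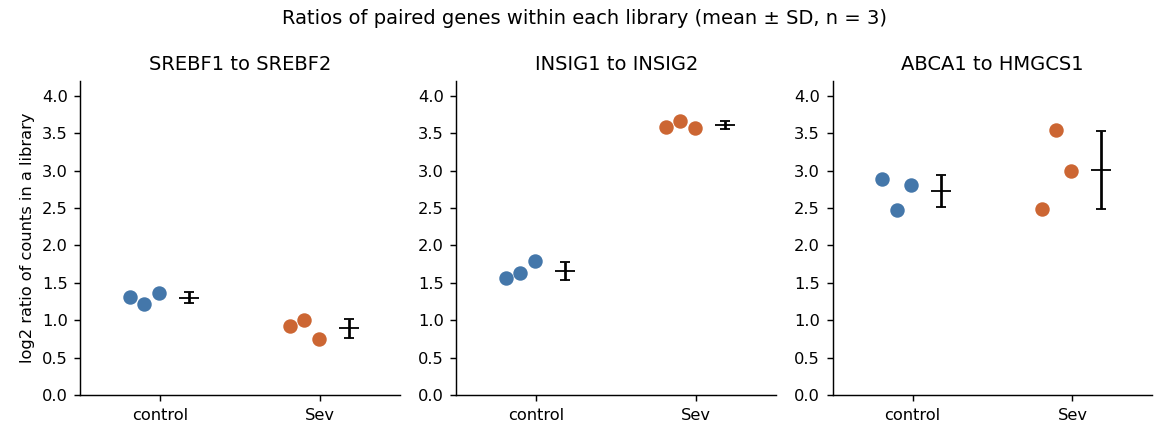
The log2 ratio of counts within each library for SREBF1 to SREBF2, INSIG1 to INSIG2 and ABCA1 to HMGCS1, by group; points are libraries and bars are the mean ± SD (n = 3). The INSIG1 to INSIG2 ratio separates the groups most widely (1.66 and 3.61), the SREBF1 to SREBF2 ratio is lower in all 3 Sev libraries, and the ABCA1 to HMGCS1 groups overlap.

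HMGCS1, SQLE and IDI1 encode enzymes of cholesterol synthesis that SREBP2 is known to drive. HMGCS1, the cytosolic HMG-CoA synthase at the head of the mevalonate pathway, lies on chromosome 5 from 43289395 to 43313512 (minus strand). It gave 35.8, 34.5 and 32.3 CPM in control and 53.0, 28.8 and 36.8 CPM in Sev. The 3 Sev libraries straddled the control range, with replicate 1 far above it and replicate 2 below it. The log2 fold change of 0.21 ± 0.20 (SE, n = 3 per group; 95% interval -0.26 to 0.67) was not called (edgeR adjusted p = 0.433), and without Sev replicate 1 it was -0.06 (edgeR adjusted p = 0.771).

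SQLE, the squalene epoxidase that makes the first oxygen-bearing sterol intermediate, gave 18.5, 20.6 and 20.9 CPM in control and 21.1, 23.9 and 15.6 CPM in Sev. Sev libraries lay both above and below control. The log2 fold change was 0.01 ± 0.16 (SE, n = 3 per group; 95% interval -0.36 to 0.39; edgeR adjusted p = 0.961). Its sign changed with the scaling (-0.14 with library size alone, edgeR adjusted p = 0.478) and with the library left out (-0.12 without Sev replicate 2, 0.17 without Sev replicate 3), so no direction could be given for SQLE.

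IDI1, the isopentenyl diphosphate isomerase that balances the 2 building blocks of isoprenoids, lies on chromosome 10 from 1039152 to 1049170 (minus strand). It gave 13.2, 14.1 and 15.1 CPM in control and 20.4, 18.5 and 24.5 CPM in Sev, with every Sev library above every control library. Its log2 fold change of 0.58 ± 0.13 (SE, n = 3 per group), a 1.49-fold higher level, had an edgeR adjusted p of 0.0102. The call held in all 6 fits without 1 library, at 0.46 to 0.67, and with library size alone (0.44, edgeR adjusted p = 0.0431), but not in limma on log2(FPKM + 1), at 0.33 (limma adjusted p = 0.0534). Over all alternatives the adjusted p ranged from 0.0014 to 0.146. IDI1 shares 643 exon bases with IDI2-AS1 on the opposite strand, which had 17 to 119 counts and a log2 fold change of 0.10 (edgeR adjusted p = 0.921), against 557 to 971 counts for IDI1. Its processed copies IDI1P1, IDI1P2 and IDI1P3 had at most 17 counts in any library.

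ABCA1, on chromosome 9 from 104781002 to 104928237 (minus strand), encodes the exporter that passes cholesterol to apolipoproteins and is a classic LXR target. It gave 265.2, 192.7 and 226.3 CPM in control and 298.4, 334.5 and 294.6 CPM in Sev. The groups did not overlap in CPM, although control replicate 1 came close to the Sev range. The log2 fold change was 0.44 ± 0.12 (SE, n = 3 per group), a 1.36-fold higher level, with an edgeR adjusted p of 0.0217. This call was less stable than those of INSIG1 and IDI1. It was lost without control replicate 2 (0.32, edgeR adjusted p = 0.0556), without control replicate 3 (0.43, edgeR adjusted p = 0.071), without Sev replicate 2 (0.38, edgeR adjusted p = 0.0536) and with library size alone (0.29, edgeR adjusted p = 0.0949), within a range of 0.00768 to 0.271 over all alternatives. In deposited FPKM the groups overlapped, since control replicate 1 (20.5) was level with Sev replicate 1 (also 20.5).

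**Figure D3:**
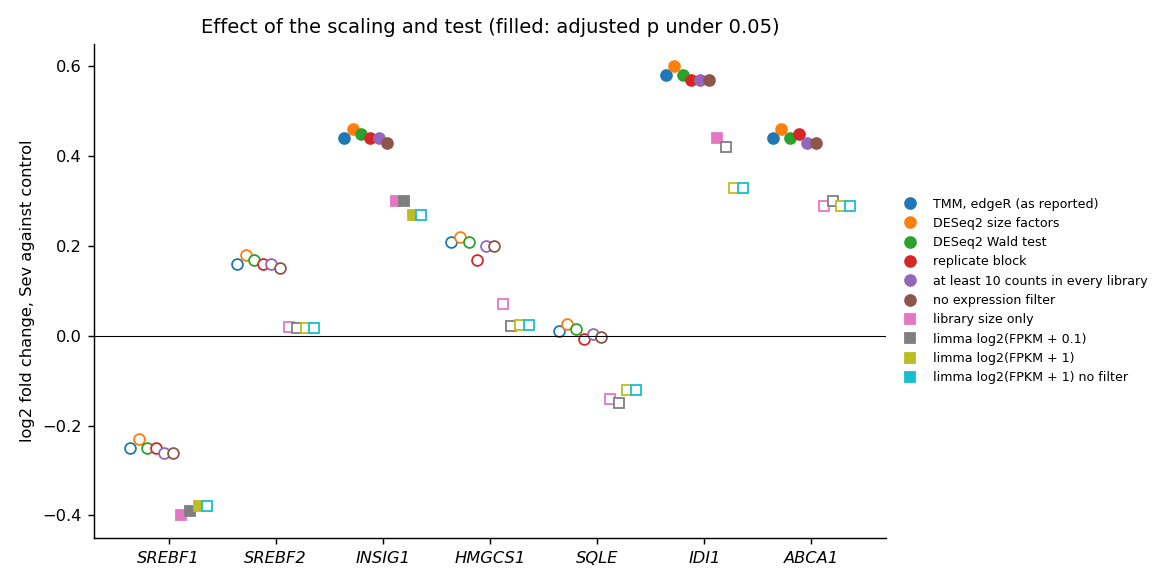
The log2 fold change of each of the 7 genes (vertical axis) under 10 settings of scaling, filter and test; filled symbols have an adjusted p under 0.05, and squares mark the settings with no TMM or DESeq2 scaling. Library size alone and the FPKM settings place each of the 7 genes lower, by amounts that differ between genes in the FPKM settings (IDI1 at 0.58 as reported and 0.33 in log2(FPKM + 1), SREBF1 at -0.25 and -0.38).

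ABCA1 export and synthesis were also set against each other within libraries. The log2 ratio of ABCA1 to HMGCS1 counts was 2.89, 2.48 and 2.81 in control and 2.49, 3.54 and 3.0 in Sev. The groups overlapped, and the difference of 0.28 had p = 0.4 in the two-sided exact permutation test. It was 0.021 without Sev replicate 2 and 0.54 without Sev replicate 1. Measured from the median of all features under library size alone, the 7 log2 fold changes were -0.25 for SREBF1, 0.17 for SREBF2, 0.45 for INSIG1, 0.22 for HMGCS1, 0.01 for SQLE, 0.59 for IDI1 and 0.44 for ABCA1. These lie within 0.01 of the TMM values.

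The SREBP genes also carry microRNA genes that act on ABCA1 in the textbook account: MIR33A lies in SREBF2 and MIR33B in SREBF1. Their mature 5p strands (RefSeq, GRCh38.p14) are printed with the seed, bases 2 to 8, in capitals, because the shared seed ties both host genes to the same target letters. The loci of the mature strands are chr22:41900949-41900969 (plus strand) and chr17:17813897-17813916 (minus strand).
miR-33a-5p: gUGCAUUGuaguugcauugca
miR-33b-5p: gUGCAUUGcuguugcauugc

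Both mature strands have the seed UGCAUUG. The longest annotated 3′ UTR of ABCA1 (GENCODE 29, 3313 bases) held 4 matches to the complement of this seed, CAATGCA. Of these, 3 lay close together, the first pair overlapping, at UTR positions 135, 140 and 150, and the other was at position 1475. The cluster, at chr9:104784155-104784184 on the minus strand, reads as follows, with the matches in capitals.
ABCA1 cluster: tattCAATGCAATGCAattCAATGCAatga

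Among 2908 UTRs at least as long, each cut to its first 3313 bases, 16.7% held at least 1 match and 3 (0.103%) held 4 or more. The counts do not measure mature microRNAs, so no change in miR-33 can be read from them. At the microRNA genes, MIR33A had 0 to 1 counts and MIR33B 2 to 4 counts in the 6 libraries. The seed matches are a description of sequence beside the ABCA1 values above and bear on no measured microRNA level.

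The order of the 7 genes by level was read per length, in the FPKM deposited by the authors. In control, SREBF1 was highest at 44.6 ± 4.68 FPKM (SD, n = 3), followed by SREBF2 at 19.7 ± 1.21, ABCA1 at 17.3 ± 3.11, INSIG1 at 9.49 ± 0.802, HMGCS1 at 4.38 ± 0.288, SQLE at 3.94 ± 0.188 and IDI1 at 2.75 ± 0.167. Of these neighbours, the libraries of SREBF2 and ABCA1 overlapped and the others did not. In Sev, SREBF1 again led at 33.9 ± 2.14 FPKM, ahead of ABCA1 at 21.2 ± 0.869, SREBF2 at 20.0 ± 1.31, INSIG1 at 11.7 ± 0.862, HMGCS1 at 4.6 ± 1.48, IDI1 at 3.75 ± 0.672 and SQLE at 3.59 ± 0.645. Here ABCA1 overlapped SREBF2, HMGCS1 overlapped IDI1 and IDI1 overlapped SQLE, so the exchanged places of these genes lie within the spread of the libraries. With the summed counts of each library as its read total, the FPKM values give a length for each gene above its GENCODE 29 exons. The read totals behind the FPKM are not given, so this excess need not be one of gene length. For HMGCS1 the length so derived was 8160 to 8228 against 4702 bases, and for IDI1 5364 to 5398 against 4345 bases. The excess was larger for HMGCS1 than for the other 6 genes. The FPKM of HMGCS1 is therefore low relative to theirs if GENCODE 29 lengths are used.

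**Figure D4:**
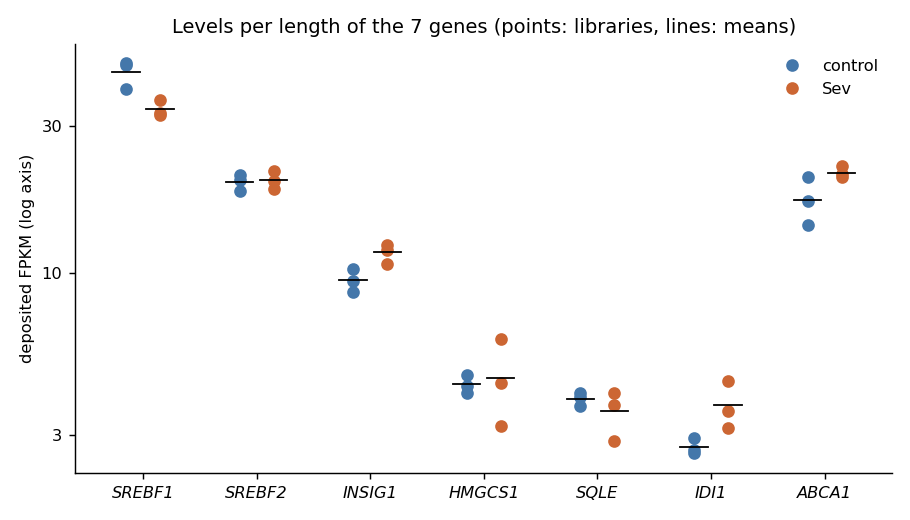
Deposited FPKM of the 7 genes in each library on a log axis; points are libraries, and lines are means of 3. SREBF1 is highest in both groups (44.6 and 33.9 FPKM), and HMGCS1, SQLE and IDI1 are the 3 lowest.

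The wider pathway was read from 5 gene lists, which between them hold the 7 genes. In each list, calls were split between both directions. Of the 16 genes of SREBP processing and its control, all tested, 5 were called higher and 3 lower (median log2 fold change 0.05), beside 22.1% higher and 21.5% lower of all features. Beside INSIG1, those higher included parts of the machinery that marks sterol-regulated proteins for degradation. Among them were RNF139, a ubiquitin ligase (35.3, 37.7 and 41.4 CPM in control, 61.8, 65.4 and 64.1 CPM in Sev), with a log2 fold change of 0.74 ± 0.09 (SE; edgeR adjusted p = 0.000641), and the conjugating enzymes UBE2G2 at 0.44 (edgeR adjusted p = 0.00398) and UBE2J2 at 0.39 (edgeR adjusted p = 0.00788). Those lower were INSIG2, ERLIN2, part of a membrane complex of the degradation machinery, at -0.33 (edgeR adjusted p = 0.0118), and MBTPS2, the site-2 protease of SREBP, at -0.34 (edgeR adjusted p = 0.0306). The ERLIN2 call was lost without Sev replicate 1 (-0.30, edgeR adjusted p = 0.0542). That of MBTPS2 held in 1 of the 6 fits without 1 library, the one without Sev replicate 2, and in the others its adjusted p ranged up to 0.0853. SCAP, the escort itself, gave 133.3, 123.7 and 127.5 CPM in control and 119.9, 146.0 and 114.5 CPM in Sev, a log2 fold change of -0.02 ± 0.10 (SE; edgeR adjusted p = 0.916) with overlapping groups.

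All 24 cholesterol synthesis enzymes were tested, with 3 called higher, 5 lower and a median log2 fold change of 0.06, beside the same 22.1% and 21.5% of all features. Beside IDI1, those higher were CYP51A1, the lanosterol demethylase, at 0.27 (edgeR adjusted p = 0.0336) and IDI2, the second isomerase gene, with only 0, 1 and 4 counts in control and 12, 12 and 17 in Sev (edgeR adjusted p = 0.00863). The fitted log2 fold change of IDI2 was 3.13 with all libraries, and with 1 left out it ran from 2.6 (without control replicate 1) to 4.54 (without control replicate 3). The CYP51A1 call held in 1 of the 6 fits without 1 library, the one without Sev replicate 2, with an adjusted p of up to 0.103 in the others, and was lost with library size alone (0.13, edgeR adjusted p = 0.302). Among those lower, MVD, the mevalonate diphosphate decarboxylase just before IDI1 in the pathway, fell from 15.4, 14.1 and 15.5 CPM to 10.8, 9.0 and 10.8 CPM, a log2 fold change of -0.56 ± 0.13 (SE; edgeR adjusted p = 0.00894). LBR, a sterol reductase of the nuclear envelope, was at -0.61 (edgeR adjusted p = 0.00974), HSD17B7 at -0.74 (edgeR adjusted p = 0.0103), GGPS1, which makes geranylgeranyl diphosphate, at -1.26 (edgeR adjusted p = 0.0123), and MVK, mevalonate kinase, at -0.42 (edgeR adjusted p = 0.0225). The Sev libraries of GGPS1 were spread widely, at 5.73, 10.35 and 4.14 CPM, against 14.82, 15.67 and 17.8 CPM in control.

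**Figure D5:**
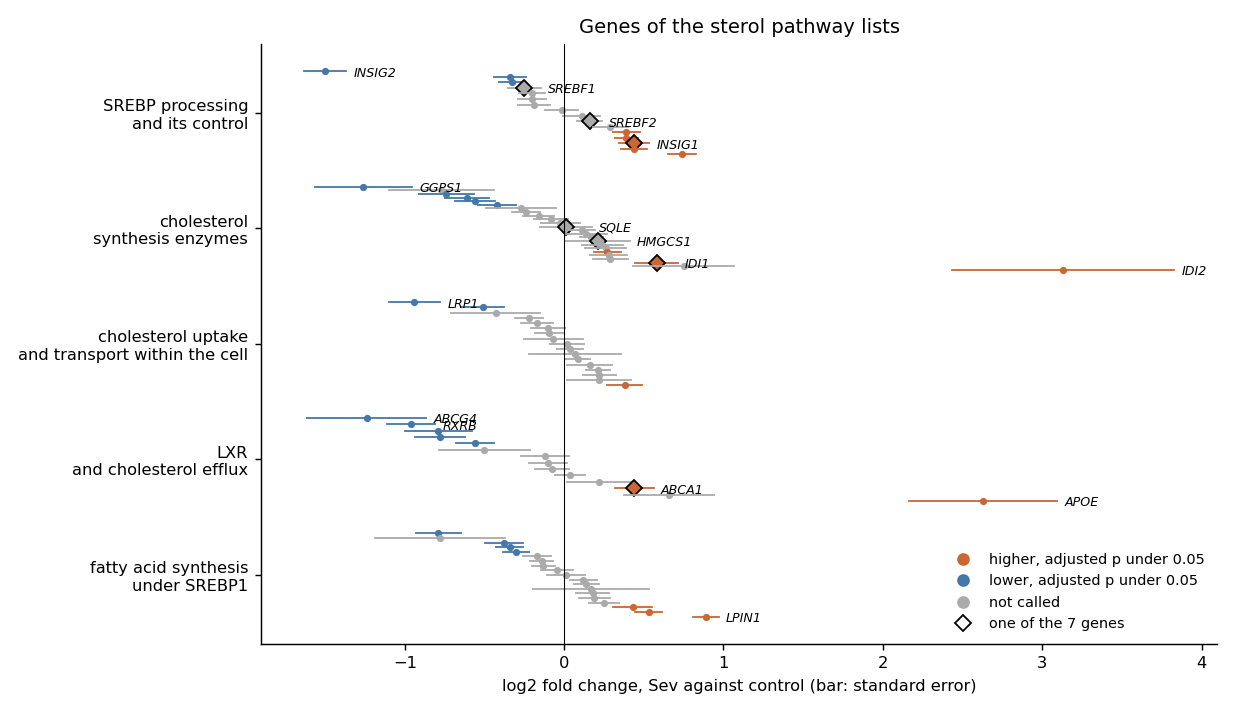
Log2 fold change of Sev against control (horizontal axis, bars are standard errors) for every tested gene of the 5 lists, ordered within each list; colours mark genes called higher, called lower or not called, and diamonds mark the 7 genes. Each list holds calls in both directions, with INSIG2 at -1.5 among the outermost; IDI2, far to the right, had at most 4 counts in any control library.

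In uptake and transport within the cell, 1 gene was called higher and 2 lower among the 17 tested of 19 genes (median log2 fold change 0.02), beside 22.1% and 21.5% of all features. Without 1 library these counts ran from 0 to 2 and from 1 to 3. LRP1, a receptor for apolipoprotein E, was lower at -0.94 (edgeR adjusted p = 0.00287). VLDLR was lower at -0.51 (edgeR adjusted p = 0.018), a call lost without control replicate 3 (-0.49, edgeR adjusted p = 0.0569) or Sev replicate 1 (-0.48, edgeR adjusted p = 0.0625). MYLIP, an LXR-driven ubiquitin ligase, stood at 34.4 to 48.3 CPM in control and 36.7 to 61.4 CPM in Sev (log2 fold change 0.22, edgeR adjusted p = 0.408). Without Sev replicate 2 the MYLIP log2 fold change was 0.00016 and without Sev replicate 3 it was 0.38.

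Among the LXR and efflux genes, 14 of 17 were tested, of which 2 were called higher and 5 lower (median log2 fold change -0.11), again beside 22.1% and 21.5% of all features. ABCA1 was joined by APOE, the main lipid carrier of the brain and an LXR target, with 21, 10 and 15 counts in control and 136, 63 and 52 in Sev, a log2 fold change of 2.63 ± 0.46 (SE; edgeR adjusted p = 0.00321). This left APOE at 1.31 to 3.61 CPM in Sev, with replicate 1 well above the other two. The receptor genes did not share this direction. NR1H3, which encodes LXR alpha, gave 4.66, 3.10 and 3.71 CPM in control and 1.91, 2.29 and 2.45 CPM in Sev, a log2 fold change of -0.79 ± 0.21 (SE; edgeR adjusted p = 0.0182) that was no longer called without control replicate 1 (-0.63, edgeR adjusted p = 0.058) or Sev replicate 1 (-0.69, edgeR adjusted p = 0.0655). RXRA and RXRB, which encode partners of LXR, were lower at -0.56 (edgeR adjusted p = 0.00681) and -0.96 (edgeR adjusted p = 0.00195). NR1H2, which encodes LXR beta, gave 36.6 to 42.7 CPM in control and 35.1 to 41.8 CPM in Sev (log2 fold change -0.07, edgeR adjusted p = 0.593). The transporter genes ABCA7, at -0.78 (edgeR adjusted p = 0.00539), and ABCG4, at -1.24 with 10 to 50 counts (edgeR adjusted p = 0.0296), were lower. ABCG1, the other classic LXR-driven exporter, gave 1.61, 0.86 and 1.01 CPM in control and 1.59, 2.16 and 1.77 CPM in Sev. Its log2 fold change of 0.66 ± 0.28 (SE) was not called (edgeR adjusted p = 0.0919) but was without control replicate 1 (0.96, edgeR adjusted p = 0.0304).

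Fatty acid synthesis under SREBP1 had 19 of 20 genes tested, with 3 called higher and 4 lower (median log2 fold change 0.01), beside 22.1% and 21.5% of all features. FASN, the fatty acid synthase, was higher at 0.53 ± 0.08 (SE; edgeR adjusted p = 0.00199), from 761.8, 831.6 and 864.3 CPM to 1143, 1217 and 1193 CPM. LPIN1, a phosphatidic acid phosphatase, was higher at 0.89 (edgeR adjusted p = 0.000201) and ACSL1, an acyl-CoA synthetase, at 0.43 (edgeR adjusted p = 0.0246). ACACB, the mitochondrial acetyl-CoA carboxylase, was lower at -0.79 (edgeR adjusted p = 0.00321), ACSL3 at -0.34 (edgeR adjusted p = 0.0138), SCD5 at -0.30 (edgeR adjusted p = 0.0193) and ACSS2 at -0.38 (edgeR adjusted p = 0.0338). Calls of ACSL1 were lost in 4 of the 6 fits without 1 library (without control replicates 1 or 3 or Sev replicates 1 or 3, adjusted p up to 0.086), and those of SCD5 in 3 (without control replicates 1 or 3 or Sev replicate 1, adjusted p up to 0.0764). FASN and LPIN1 stood higher beside an SREBF1 level that was not called in either direction.

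Last, the genes with the closest profile to each of the 7 were sought among 16062 genes with a mean of at least 1 CPM, by the root mean square difference of centred log2 CPM over the 6 libraries. Among the 2 nearest to each were OCEL1 and PIM2 for SREBF1, HLA-E and ARNT2 for SREBF2, NDST3 and DHX29 for INSIG1, RPL5P30 for HMGCS1, MINDY2 and CTSB for SQLE, PPP1R2 and GFOD2 for IDI1, and TREH and YJEFN3 for ABCA1. The differences were 0.022 to 0.05 for all of these except RPL5P30, at 0.11. None of the 7 had another of the 7 among its 2 nearest.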

How the data were processed

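The authors sequenced rRNA-depleted, strand-specific RNA libraries and deposited raw counts and FPKM per gene. The submitters' processing notes list bcl2fastq 2.19, featureCounts and build hg18, and the strand setting is not given in the sources used here. The identifiers are Ensembl genes, with 932 assembled loci. Positions were taken from GENCODE 29 (GRCh38) by gene identifier and describe genes, not the authors' alignment.

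The deposited counts were filtered with filterByExpr, scaled by TMM and tested with the edgeR 4.0.16 quasi-likelihood test in R 4.3.3 on the 3 control and 3 Sev libraries, with Benjamini-Hochberg adjustment and a limit of 0.05. The deposited FPKM served for levels between genes and, through limma 3.58.1 on log2(FPKM + 1) or log2(FPKM + 0.1), as an alternative. Genes with FPKM of at least 0.5 in 3 libraries were kept there. Such values understate changes of low genes. Other alternatives were DESeq2 1.42.0, its size factors, library size alone, other filters, a replicate block and leaving out each library. Ratios within libraries were compared with a two-sided exact permutation test (scipy 1.17.1). Replicates differed beyond counting noise in 50.5 to 68% of 13668 abundant genes. Depth was 38624292 to 46318311 counts per library.

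The 7 genes and the 5 lists were chosen with earlier results of these data known. Named from each list were the 3 genes with the smallest p in each direction among those called, with 9 genes always given, and for each of the 7 the 2 nearest profiles. A few of the genes so chosen are not reported here, although the list counts include all tested members. UBE2J2, GGPS1, MVK, ABCG4 and ACSS2 were added after their values were seen, to complete short counts. The stability of their calls under the alternatives is not given. Promoters and mature microRNAs were RefSeq sequences of GRCh38.p14, matched for 6 of the 7 genes and both microRNA genes. Motifs were searched on both strands, and the E-box, which reads the same on both, was counted once.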

Additional observations from a re-analysis of the deposited data

How the results depend on the processing

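The 7 genes kept their direction and their side of the threshold under DESeq2 size factors, the DESeq2 Wald test and a minimum of 10 counts in every library. The median log2 fold change of all features was -0.006 as reported, -0.147 with library size alone, and -0.115 and -0.166 in the filtered fits of log2(FPKM + 1) and log2(FPKM + 0.1). With library size alone, SREBF1 was at -0.40 and called (edgeR adjusted p = 0.0123), ABCA1 at 0.29 and not called, and SQLE at -0.14. That setting called 1 of the 7 lower, 7 lower among SREBP processing genes, 0 higher and 4 lower among uptake genes, 1 higher among LXR genes and 7 lower among fatty acid genes. Over all 27514 features it called 4665 higher and 7502 lower. In limma on log2(FPKM + 1) and log2(FPKM + 0.1), respectively, SREBF1 was at -0.38 and -0.39 (called), ABCA1 at 0.29 and 0.30 and IDI1 at 0.33 and 0.42 (not called), and SQLE at -0.12 and -0.15. Each called 1 of the 7 higher and 1 lower, 7 lower among SREBP processing genes, 7 lower among fatty acid genes, and 0 higher among synthesis, uptake and LXR genes. Over all 22370 features kept, these fits called 3676 and 3623 higher and 6709 and 6530 lower, respectively. Without the FPKM filter, INSIG1 was at 0.27, IDI1 at 0.33 and ABCA1 at 0.29, none of them called, with SQLE at -0.12. There 0 of the 7 were called higher, with 2 higher among SREBP processing, 1 among synthesis, 0 among uptake and 0 among LXR genes, and 3 lower among LXR genes. This fit adjusted over all 61496 features, of which 3547 were called higher and 5484 lower. DESeq2 size factors called 2 uptake genes higher, beside 6242 of all 27514 features, and SQLE was at -0.0018 with no expression filter.

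Leaving out 1 library moved SREBF1 from -0.33 to -0.20, HMGCS1 from -0.06 to 0.40, SQLE from -0.12 to 0.17, ABCA1 from 0.32 to 0.55, MYLIP from 0.00016 to 0.38 and SCAP from -0.12 to 0.054. Over all features these fits called 4780 to 5709 higher and 4438 to 5521 lower of 28423 to 28874 tested. With all libraries the calls were 6094 and 5920 of 27514. Of the 7, 2 to 3 were called higher and 0 to 1 lower. Counts of lower calls ran from 1 to 4 for SREBP processing, 1 to 3 for uptake, 3 to 5 for LXR and 2 to 5 for fatty acid genes, and of higher calls from 0 to 2 for uptake and 1 to 3 for LXR genes.

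The labels do not say whether the replicate numbers pair the libraries. In their deviations from the group means, same-numbered control and Sev libraries correlated at -0.00723, 0.00351 and 0.027. Differently numbered ones correlated at -0.0383 to 0.0319, so same-numbered libraries showed no closer match. A shared culture or batch was not tested. With the replicate block INSIG1, IDI1 and ABCA1 were called as before (edgeR adjusted p = 0.0209, 0.0189 and 0.0445), SQLE was at -0.0079 and 2 fatty acid genes were called lower. That fit called 5228 of all 27514 features higher and 5021 lower. The cause of these changes was not tested. With 3 libraries per group the exact permutation test cannot go below 0.1, and intervals for HMGCS1 and SQLE leave room for changes of either sign.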
